A study of Rattus norvegicus with 6 samples.

Results

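The genes described here are 32 genes of the endoplasmic reticulum (ER) stress response and of the response to amino acid shortage, measured in the renal cortex of rats given o-nitroanisole or its vehicle. They were found through the RefSeq accession of each non-control probe on the array, matched to rat gene symbols, and all 32 had at least 1 probe, 51 probes in all, out of 15284 gene symbols on the array. The study used 6 male Sprague-Dawley rats, 5 weeks old at purchase. The labels give corn oil to 3 rats and o-nitroanisole, an aromatic nitro compound, to 3 rats at 400 mg/kg/day, both over 4 weeks. Total RNA of each rat's cortex was labelled with Cy3 and hybridised to its own one-colour Agilent array, and the series calls the rats biological replicates. Controls and treated rats share strain, sex, diet and housing.

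The ER folds secreted and membrane proteins with chaperones such as Hspa5 (BiP) and with disulfide isomerases. When unfolded protein accumulates, the sensors Atf6, Ire1 and Perk raise the output of these folding genes, lower translation and, through Atf4, switch on genes for amino acid uptake and synthesis. The same Atf4 arm is reached from amino acid shortage through Gcn2, and serine synthesis and mitochondrial folate metabolism are among its outputs. In the kidney, the proximal tubule reabsorbs filtered amino acids and synthesises serine.

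Values are log2 signals relative to the 75th percentile of the same array, so that 0 equals that percentile. A difference is the o-nitroanisole mean less the corn oil mean, given with the standard error (SE) of limma's fit across 32428 features and 3 rats per group. Of the 32 members, 31 were tested, and each of these exceeded background clearly on all 6 arrays, by the scanner software's own call. With limma's default moderation and Benjamini-Hochberg adjustment, 0 of the 31 members passed an adjusted p of 0.05, where 0% of all features passed, and the smallest adjusted p was 0.0711 over all features and 0.120 among the members. The trend and robust form of the fit, which called 1.61% of features (1.24% higher and 0.373% lower), also called 0 members. At an unadjusted p under 0.05, which 18.9% of all features reached, 4 members were higher, against 11.8% of all features, and 5 were lower, against 7.12%. Groups did not overlap for 27.2% of all features, and among the members for 4 on the higher side (17.6% of all features) and for 8 on the lower side (9.56%). Each treatment had a slide and a scan of its own, so an effect of slide or scan and one of treatment cannot be told apart. In bulk tissue, fewer cells of a type and less RNA per cell cannot be told apart either.

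The promoters of the folding members are shown first, because a known element through which ER stress acts on such genes is short. Only exact copies of its letters were counted. Promoter windows of RefSeq (build GRCr8, 250 bases before to 50 bases after the start of transcription) were matched by symbol for 28 of the 32 members. The ER stress element, searched on both strands as CCAAT and CCACG with any 9 bases between them, was held by 22 of 33469 windows of all genes, a share of 0.0657%. Among the 12 folding members with a window, 6 held it, which is 6 of the 21 genes that hold it at all. In the lines below, written 5′ to 3′ on the gene's strand, capitals mark the element; for Hsp90b1, which held it on both strands, both sites are given.
Hspa5 (chr3:38452953-38453011, + strand): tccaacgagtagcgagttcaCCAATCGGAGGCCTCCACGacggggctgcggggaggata
Hsp90b1, the farther site (chr7:23012431-23012489, - strand): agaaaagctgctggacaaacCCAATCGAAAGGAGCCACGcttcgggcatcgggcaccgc
Hsp90b1, the nearer site (chr7:23012327-23012385, - strand): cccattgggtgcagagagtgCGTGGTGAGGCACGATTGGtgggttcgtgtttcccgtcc
Calr (chr19:40213117-40213173, + strand): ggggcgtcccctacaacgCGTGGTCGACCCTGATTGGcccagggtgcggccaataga
Dnajc3 (chr15:102432514-102432572, + strand): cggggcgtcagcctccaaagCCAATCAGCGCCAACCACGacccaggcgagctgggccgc
Creld2 (chr7:121789219-121789277, + strand): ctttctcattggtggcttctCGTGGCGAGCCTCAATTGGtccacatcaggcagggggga
Xbp1 (chr14:84604538-84604596, + strand): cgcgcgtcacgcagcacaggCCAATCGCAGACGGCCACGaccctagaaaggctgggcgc

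A C/EBP-ATF response element, the kind of site bound by Atf4, was searched as TGATGNAA on both strands and was held by 3.98% of all windows. It lay in the windows of 3 of the 11 ATF4-type members, Trib3, Chac1 and Fgf21, and of the folding member Herpud1. The 3 ATF4-type sites are printed with the element in capitals, which show its reverse complement because it lay on the strand opposite to the gene.
Trib3 (chr3:161275534-161275570, - strand): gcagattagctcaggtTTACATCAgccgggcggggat
Chac1 (chr3:126795948-126795987, + strand): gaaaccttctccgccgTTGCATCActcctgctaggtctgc
Fgf21 (chr1:105221496-105221535, - strand): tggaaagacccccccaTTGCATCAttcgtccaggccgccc
The serine and one-carbon members held neither of these elements in their 5 windows. A match describes these letters only, not a bound site.

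**Figure D1:**
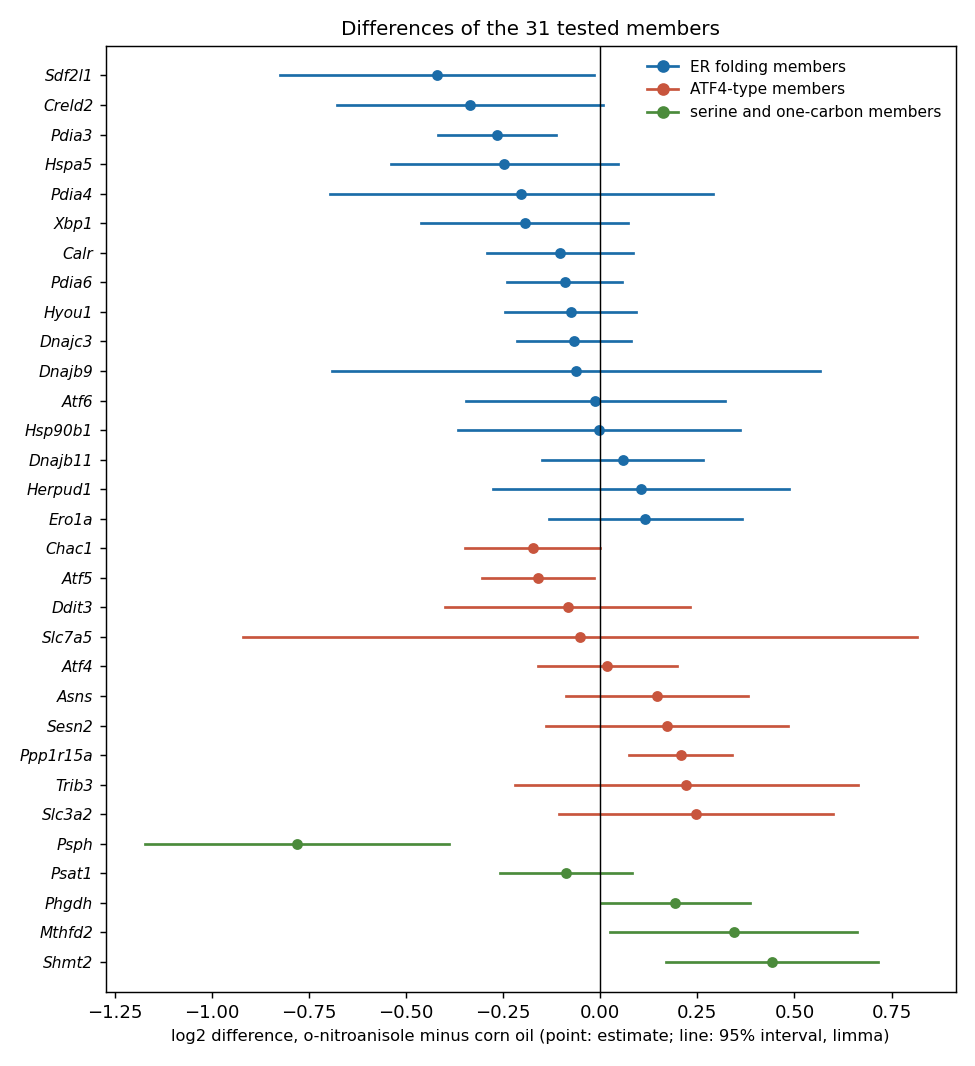
Log2 difference, o-nitroanisole minus corn oil, of the 31 tested members; points are estimates and lines 95% intervals from limma (3 rats per group), coloured by role. The differences of 13 of 16 folding members lie left of 0, and Psph at -0.78 and Shmt2 at 0.44 are the extremes.

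The folding members leaned low, with 13 of 16 differences below 0, where 44.0% of all features lay below 0. Under median scaling, where 59.7% of all features lay above 0, 11 of 16 folding members lay below 0. Under quantile scaling, where 51.2% of all features lay above 0, 13 did. The folding members below 0 also numbered 11 under normexp, with probe means and without o-nitroanisole rat 2. Their median difference was -0.08, beside 0.03 over all features. At an unadjusted p under 0.05, 0 were higher (11.8% of all features) and 2 lower (7.12%). Groups did not overlap for 0 on the higher (17.6% of all features) and 5 on the lower side (9.56%). All 16 confidence intervals (95%) lay within a log2 difference of 1 either way, and 11 within 0.5.

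Sdf2l1, an ER protein that works with Hspa5 and its J-domain partners, showed the lowest difference of the folding members. Its signal was 2.00, 2.08 and 2.51 in the corn oil rats and 1.96, 1.72 and 1.65 in the o-nitroanisole rats. The groups did not overlap, but the gap between the lowest corn oil and the highest o-nitroanisole rat was small beside the spread within corn oil. The difference was -0.42 ± 0.16 (SE, adjusted p = 0.251, unadjusted p = 0.0438), and the 3 probes of the gene gave differences from -0.47 to -0.40. Without corn oil rat 3 it was -0.26. Creld2, an ER-resident factor induced with the chaperones, lay at 0.91, 1.23 and 1.26 in corn oil and at 1.01, 0.73 and 0.66 in o-nitroanisole, where 1 treated rat exceeded the lowest control. Its difference was -0.33 ± 0.14 (adjusted p = 0.274).

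Pdia3, the disulfide isomerase ERp57 that serves glycoproteins held by calnexin and calreticulin, had the smallest p-value of the folding members. Its signal was 3.08, 3.15 and 3.17 in corn oil and 2.92, 2.84 and 2.83 in o-nitroanisole, so that all treated rats lay below all controls with a narrow spread in both groups. The difference was -0.27 ± 0.06 (limma, adjusted p = 0.135, and from 0.0569 in the trend and robust fit to 0.357 over all alternatives). Its relative Pdia6 lay at 3.87, 3.93 and 3.93 against 3.87, 3.83 and 3.76, groups that barely separated, with a difference of -0.09 ± 0.06. Pdia4, the isomerase ERp72, lay at -0.25, -0.51 and -0.72 against -0.50, -0.52 and -1.07, and its groups overlapped (-0.20 ± 0.20). The Pdia4 difference was -0.016 without o-nitroanisole rat 3, -0.081 without corn oil rat 1, -0.32 without corn oil rat 3 and -0.031 under normexp background correction.

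Hspa5, the central ER chaperone and the usual readout of ER stress, had a signal of 5.31, 5.61 and 5.72 in corn oil and 5.38, 5.25 and 5.26 in o-nitroanisole. The groups overlapped, since corn oil rat 1 lay below 1 treated rat. The difference was -0.25 ± 0.12 (adjusted p = 0.331), with an interval from -0.54 to 0.05, so that in this fit a higher level than 0.05 log2 under o-nitroanisole lay outside the interval. Without corn oil rat 3 the difference was -0.16. Hsp90b1, the ER form of the HSP90 chaperone, lay at 3.20, 3.35 and 3.69 against 3.52, 3.26 and 3.46, which gave -0.0032 ± 0.15. Its second probe gave -0.20 with groups that did not overlap, so the probes of Hsp90b1 did not give the same size.

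Of the other chaperones, Calr, the lectin chaperone calreticulin, differed by -0.10 ± 0.08 and Hyou1, an HSP70 relative that exchanges nucleotide on Hspa5, by -0.08 ± 0.07, both with overlapping groups. Calr gave -0.058 without corn oil rat 3, -0.24 under normexp and -0.16 under quantile scaling. The J-domain partners of Hspa5 went no single way: Dnajc3, also a brake on Perk, lay at 2.22, 2.22 and 2.24 in corn oil and at 2.21, 2.09 and 2.17 in o-nitroanisole (-0.07 ± 0.06), while Dnajb11 differed by 0.06 ± 0.08. Dnajb9, a J-domain protein that represses Ire1, lay at 1.02, 0.94 and 0.98 in corn oil and at 1.15, 0.33 and 1.28 in o-nitroanisole. One treated rat therefore stood apart below every control and the other 2 above every control. The fitted difference of Dnajb9 was -0.06 ± 0.25, and without o-nitroanisole rat 2 it was 0.23. Its second probe read 0.71 log2 or more in all 3 treated rats and gave 0.16, so the low value belonged to 1 probe of that array.

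Xbp1, the transcription factor activated by Ire1 splicing, had a signal of 2.57, 2.52 and 2.88 in corn oil and 2.44, 2.46 and 2.49 in o-nitroanisole. All treated rats lay below all controls, and the difference was -0.19 ± 0.11 (adjusted p = 0.391), or -0.083 without corn oil rat 3. The array measures Xbp1 transcript and not its spliced form. Atf6, the ER-bound sensor that becomes a transcription factor, differed by -0.013 ± 0.13, with its 3 probes from -0.01 to 0.12. Herpud1, part of the ER degradation machinery, lay at 4.15, 4.05 and 4.36 against 4.58, 4.19 and 4.11 (0.10 ± 0.15), where o-nitroanisole rat 1 alone exceeded every control, and leaving out 1 rat at a time gave from -0.041 (without that rat) to 0.20. Under quantile scaling Herpud1 gave 0.025. Ero1a, the oxidase that recharges the isomerases, differed by 0.12 ± 0.10, from 0.053 without corn oil rat 3 to 0.20 without corn oil rat 1. The 6 folding members with the ER stress element had a median difference of -0.15 (from -0.33 to -0.0032), and the 6 without it in their window -0.07 (from -0.42 to 0.10). Those ranges overlap.

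The controls themselves varied in these genes. Among the corn oil rats, rat 3 had the highest signal for 12 of the 16 folding members and rat 1 the lowest for 11, where over all features rat 3 was highest for 29.7% and rat 1 lowest for 33.4%. The 12 folding members highest in rat 3 included Hspa5, Hsp90b1, Sdf2l1 and Xbp1. Without rat 3, 11 of 16 folding differences lay below 0 and the median was -0.06.

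The ATF4-type members, which respond to ER stress and amino acid shortage through Atf4, went both ways: 6 of 10 tested differences lay above 0, where 56.0% of all features did. The median was 0.08. At an unadjusted p under 0.05, 1 was higher, Ppp1r15a, where 11.8% of all features were. Lower were 2, Atf5 and Chac1, where 7.12% of all features were. These 3 were also the ATF4-type members whose groups did not overlap (17.6% of all features on the higher and 9.56% on the lower side). All 10 intervals lay within a log2 difference of 1, and 7 within 0.5.

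Atf4, the transcription factor of the arm, is controlled largely at translation, and its transcript lay at 4.43, 4.33 and 4.51 in corn oil and at 4.47, 4.48 and 4.38 in o-nitroanisole. The groups overlapped fully, with a difference of 0.018 ± 0.07 and an interval from -0.16 to 0.20. Ddit3 (CHOP), the pro-apoptotic factor downstream of Atf4, lay at 2.35, 2.63 and 2.83 against 2.51, 2.50 and 2.54. The treated rats sat inside the range of the controls (-0.08 ± 0.13, interval from -0.40 to 0.23, second probe -0.04). Trib3, a pseudokinase induced by Atf4 and Ddit3 together, lay at -4.20, -3.84 and -4.07 against -4.01, -3.98 and -3.46, with 1 treated rat above all others (0.22 ± 0.18). Without that rat, o-nitroanisole rat 3, the Trib3 difference was 0.045, without corn oil rat 1 it was 0.14, and under normexp 0.13. Atf5, a related factor linked to mitochondrial stress, lay at -0.15, -0.13 and -0.08 against -0.25, -0.33 and -0.26, all treated rats below all controls (-0.16 ± 0.06, adjusted p = 0.227), but under normexp Atf5 gave -0.087 with an unadjusted p of 0.187 (limma).

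Ppp1r15a (GADD34), the phosphatase subunit that restores translation after the stress, had the tightest separation of the ATF4-type members. Its signal was 0.70, 0.70 and 0.71 in corn oil and 0.94, 0.89 and 0.90 in o-nitroanisole. The difference was 0.21 ± 0.05 (adjusted p = 0.150), a 1.15-fold change, and the second probe also gave 0.21 with groups that did not overlap. Chac1, which degrades glutathione, lay at -0.85, -1.003 and -0.97 against -1.14, -1.05 and -1.17 (-0.17 ± 0.07, adjusted p = 0.263). Under normexp background correction, Chac1 gave 0.012, and its other 2 probes were not well above background on every array of either group. Sesn2, a leucine sensor, and Asns, which makes asparagine, gave 0.17 ± 0.13 and 0.15 ± 0.09 with overlapping groups. Sesn2 gave 0.077 without corn oil rat 1 and 0.079 without o-nitroanisole rat 1. Asns gave 0.089 without corn oil rat 2, 0.085 without o-nitroanisole rat 3 and 0.068 under normexp.

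The subunits of the large neutral amino acid transporter were measured with unequal precision. Slc3a2, the heavy chain CD98, lay at 4.11, 4.66 and 4.29 in corn oil and at 4.61, 4.61 and 4.59 in o-nitroanisole, so that the treated rats lay close together and the controls spread by more than the difference (0.25 ± 0.14). The Slc3a2 difference was 0.13 without corn oil rat 1, 0.40 without corn oil rat 2 and 0.15 under quantile scaling. The light chain Slc7a5 lay between -5.49 and -4.32 in corn oil and between -5.29 and -4.50 in o-nitroanisole (-0.05 ± 0.35), and its interval from -0.92 to 0.82 leaves the value poorly set. Fgf21, a hormone induced by Atf4, was well above background on 1 of 3 arrays in each group, at -5.37, -7.01 and -5.86 in corn oil and -6.08, -5.82 and -5.92 in o-nitroanisole, and it was not tested.

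The serine and one-carbon members held the largest differences of all members, in both directions. Of the 5, 3 (Phgdh, Shmt2 and Mthfd2) were higher at an unadjusted p under 0.05, where 11.8% of all features were. Psph was lower, where 7.12% of all features were. Groups did not overlap for any of these 4 (17.6% of all features on the higher and 9.56% on the lower side). The median was 0.19, and under quantile scaling it was 0.041.

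In the serine pathway, Phgdh takes the first step from the glycolytic intermediate, Psat1 the second and Psph the last. Phgdh lay at 6.52, 6.58 and 6.53 in corn oil and at 6.63, 6.86 and 6.72 in o-nitroanisole (0.19 ± 0.08, adjusted p = 0.262), while its second probe gave 0.15 with overlapping groups. Under quantile scaling the Phgdh difference was 0.041. Psat1 lay at 5.37, 5.44 and 5.33 against 5.25, 5.38 and 5.24 (-0.09 ± 0.07), and its second probe gave -0.35. Psph, the phosphatase that releases serine, had the smallest p-value of the 31 tested members. Its signal was 3.11, 2.66 and 2.56 in corn oil and 1.97, 2.12 and 1.90 in o-nitroanisole. Every treated rat lay below every control. The gap from 2.56 to 2.12 was wider than the spread within the treated group. It was narrower than the spread within corn oil, from 2.56 to 3.11. The difference was -0.78 ± 0.16 (limma, adjusted p = 0.120, and from 0.0591 to 0.305 over all alternatives), a 1.72-fold lower signal, with an interval from -1.17 to -0.39. It ranged from -0.89 to -0.62 on leaving out 1 rat at a time. Psph has 1 matched probe, so no second probe checks it.

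Serine then feeds mitochondrial one-carbon metabolism, in which Shmt2 converts it to glycine and Mthfd2 oxidises the released one-carbon unit. Shmt2 lay at 3.23, 3.33 and 3.01 in corn oil and at 3.52, 3.76 and 3.62 in o-nitroanisole. Its groups did not overlap, and the difference was 0.44 ± 0.11 (adjusted p = 0.145), a 1.36-fold higher signal. Mthfd2 lay at -2.01, -2.15 and -2.24 against -1.98, -1.83 and -1.56. The groups were separated by a narrow gap, with a difference of 0.34 ± 0.13 (adjusted p = 0.239). Without o-nitroanisole rat 3 it was 0.23, with an unadjusted p of 0.0834 in limma's fit. All 5 Mthfd2 probes gave a difference above 0, from 0.10 to 0.45, but all except the brightest were dim, with signals between -5.70 and -3.70. The probes at 0.10 and 0.41 had overlapping groups. Those at 0.10 and 0.37 were called above background in 2 corn oil and 3 o-nitroanisole rats. They therefore passed the filter through the o-nitroanisole group alone, which limits what their direction can add. Among the 12 members with several tested probes, the probes lay on one side of 0 for 10.

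**Figure D2:**
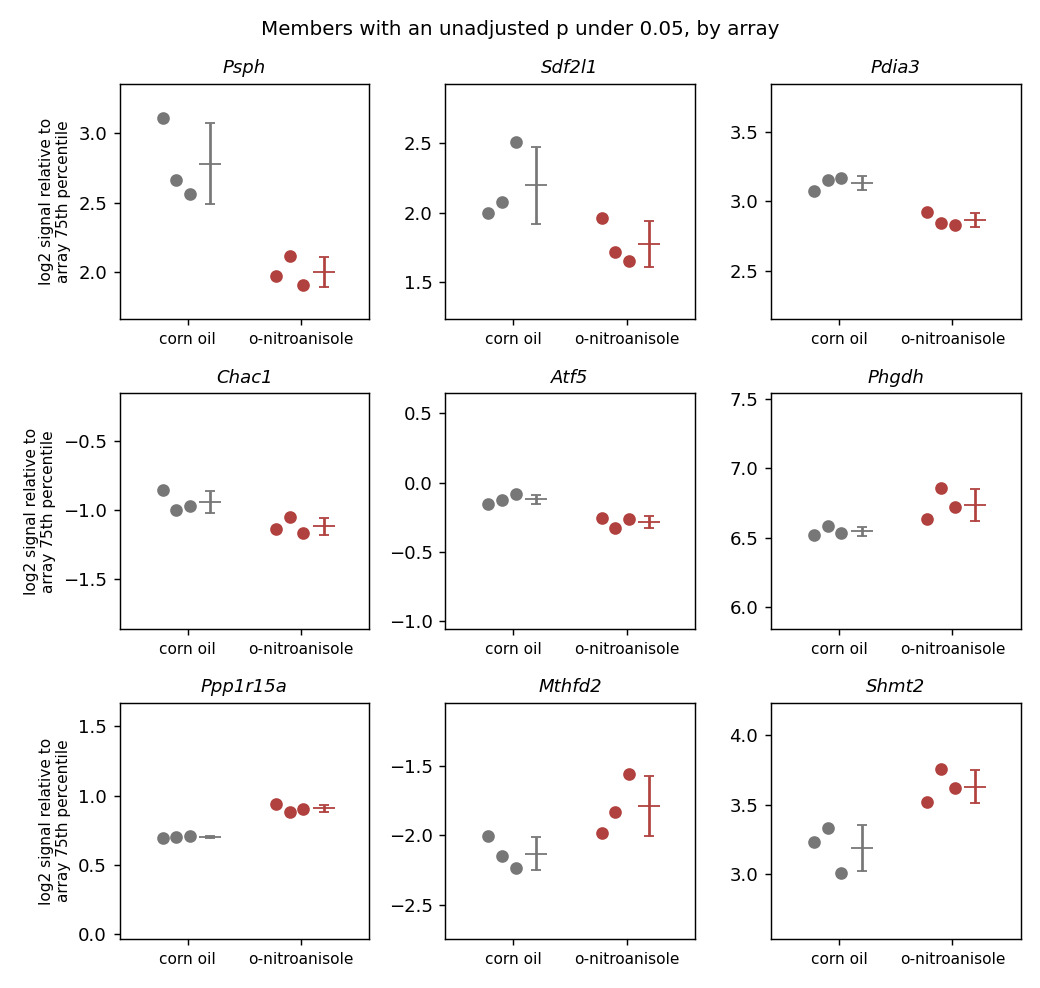
Log2 signal relative to the array's 75th percentile for the 9 members with an unadjusted p under 0.05, ordered by difference; points are single rats (grey, corn oil; red, o-nitroanisole), and bars the mean and SD of 3 rats, on axes of equal span. Psph shows the widest gap between the groups, from 2.56 to 2.12, and Ppp1r15a the narrowest spread.

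Other genes of the same pathways were taken from 3 lists. Of 26 tested ER genes that are not members, 0 passed the adjusted threshold, and the median was -0.03. At an unadjusted p under 0.05, 1 was higher (11.8% of all features) and 0 were lower (7.12%). Among those well above background on all arrays, the highest were Pdia5, an isomerase whose corn oil values spread from -1.81 to 0.54 (0.63 ± 0.61), and the translocon subunit Sec61g (0.20 ± 0.06, adjusted p = 0.160), and the lowest were Derl3, a degradation factor (-0.71 ± 0.35), and Sil1, a nucleotide exchange factor of Hspa5 (-0.16 ± 0.08).

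Of 35 other tested genes of the Atf4 axis, 0 passed with limma's defaults and 2, Atf3 and the neutral amino acid transporter Slc1a5, in the trend and robust fit, which called 1.61% of all features. In the default fit 5 were higher (11.8% of all features) and 2 lower (7.12%) at an unadjusted p under 0.05. The median was 0.05. Among those well above background on all arrays, Atf3, a stress-induced transcription factor, had the highest difference. Its signal was -1.35, -1.34 and -1.25 in corn oil and -0.33, -0.66 and -0.10 in o-nitroanisole, and every treated rat lay above every control (0.95 ± 0.15, limma, adjusted p = 0.0961, or 0.0393 in the trend and robust fit). Gdf15, a secreted stress cytokine, followed at 0.58 ± 0.25. The lowest among those well above background on all arrays were Slc3a1, the partner of the tubule's cystine transporter (-0.36 ± 0.11), and Cth, which makes cysteine (-0.33 ± 0.18). The lowest of all 35 was Slc1a4, a transporter of serine and alanine (-1.83 ± 0.67, adjusted p = 0.232), which was well above background on 2 of 3 o-nitroanisole arrays and is named after its value was seen.

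Of 17 other tested serine and one-carbon genes, 0 passed the adjusted threshold with limma's defaults. In the trend and robust fit, which called 1.61% of all features, 3 passed (Mthfd1, Aldh1l1 and Dld). In the default fit 8 were higher (11.8% of all features) and 0 lower (7.12%) at an unadjusted p under 0.05. Of the differences, 15 lay above 0, where 56.0% of all features did. The median was 0.28. Aldh1l1, the cytosolic formyl-folate dehydrogenase, lay at 4.16, 4.09 and 4.03 in corn oil and at 4.58, 4.73 and 4.54 in o-nitroanisole, with a wide gap between the groups (0.52 ± 0.08, limma, adjusted p = 0.0939, or 0.0295 in the trend and robust fit). Mthfd1, the cytosolic folate enzyme of several activities, differed by 0.39 ± 0.06 (0.0939 and 0.0248 in the same fits), and Dld, a subunit of the glycine cleavage system, by 0.30 ± 0.06 (0.120 and 0.0415). Mthfd1, Dld and Slc1a5 (0.40 ± 0.07) are named for passing that fit, after their values were seen. The lowest among those well above background on all arrays were the serine dehydratase genes Sdsl (-0.50 ± 0.22) and Sds (-0.11 ± 0.08).

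**Figure D3:**
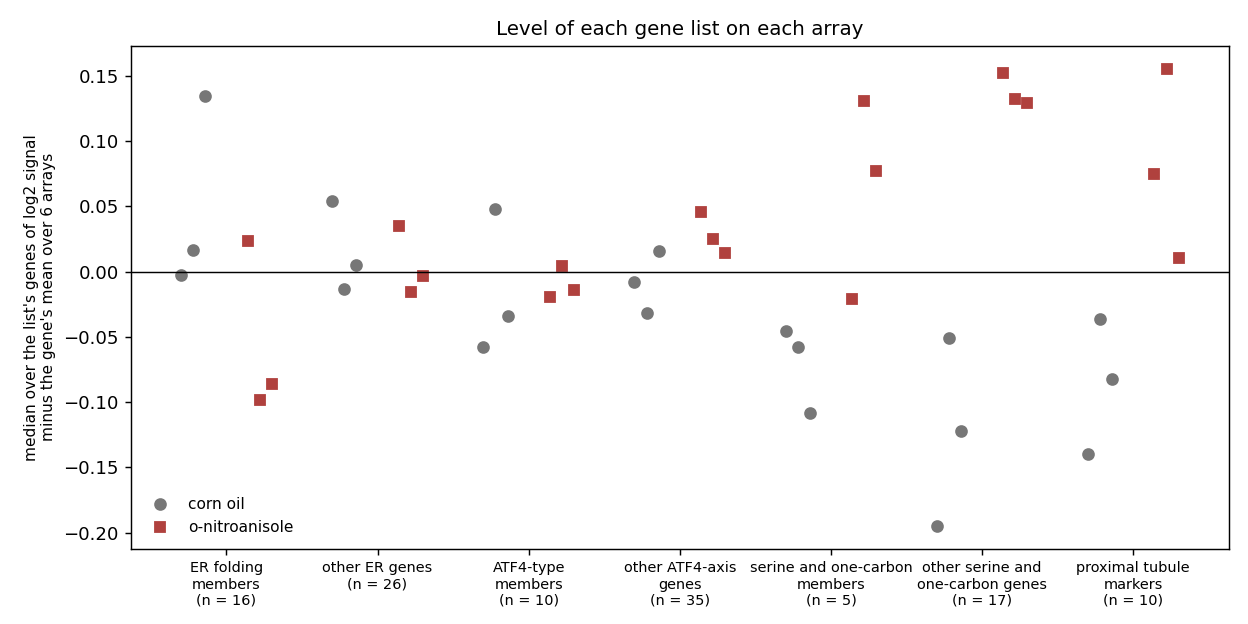
Median, over the tested genes of each list, of the log2 signal minus the gene's mean over 6 arrays, for each corn oil rat (grey circles) and o-nitroanisole rat (red squares). The groups do not overlap for the serine and one-carbon members, the other serine and one-carbon genes and the proximal tubule markers, and overlap for both ER lists, the ATF4-type members and the other genes of the Atf4 axis.

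Cell type markers were measured beside these lists. All 10 markers of the proximal tubule, a part of the labelled renal cortex, were well above background on all arrays. Their summed signal, in units of the array's 75th percentile, was 1949 to 1980 in corn oil and 2055 to 2111 in o-nitroanisole. Their median difference was 0.22, with 7 of 10 above 0. Medians also lay above 0 for both serine and one-carbon lists and for every other marker list but macrophages (-0.09). Collecting duct markers, 8 of 8 tested, summed to 164 to 175 against 172 to 204, and red blood cell markers, 5 of 7 tested, to 429 to 499 against 669 to 818. Neutrophil markers, 4 of 5 tested, summed to 0.345 to 0.394 against 0.658 to 0.983. Plasma and B cells carry a large ER; 4 of their 7 markers were tested and summed to 3.88 to 5.78 against 5.71 to 9.19, while the folding members summed to 135 to 162 against 129 to 145. Macrophage markers, 6 of 7 tested, summed to 15.7 to 19.2 against 13.5 to 19.4. Thick limb and distal tubule markers, 3 of 5 tested, summed to 475 to 520 against 405 to 431, although their median difference was 0.39, and podocyte markers, 5 of 5 tested, to 26.1 to 29.8 against 28.9 to 33.2. The part of these cell types in the member differences was not tested.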

How the data were processed

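The authors deposited 1 scanner file per rat with 1-colour spot intensities; the submitters' processing notes name Agilent Feature Extraction 10.7. Background subtraction and detrending within an array are recorded per the file headers. A second deposited table gives each probe as a linear ratio to its array's 75th percentile. Its 3 corn oil columns correspond to the scanner files of that group in a different order, so the number of a corn oil rat, taken here from the scanner files, is not settled, while its group is.

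Log2 processed signal minus the 75th percentile over 61657 non-control probes was analysed; outlier spots were set to missing, and 84 spike-in probes were not tested. Of 33356 probes with a RefSeq accession, 27460 matched a gene table of assembly GRCr8. The headers name build rn4, so only promoter windows carry coordinates. Probes were tested where all arrays of either group called them well above background, and the brightest tested probe stood for its gene. Between 66.4% and 71.5% of probes were well above background per array; the number of arrays limits the precision. Limma 3.58.1 (R 4.3.3, lmFit and eBayes) compared the groups; plots used matplotlib 3.10.9. The fit was tested on simulated data. Members, lists, tests and the rule for named genes (all members, and the 2 highest and 2 lowest genes of each pathway list among those well above background on all arrays) were chosen with earlier results of these data known. Values of a gene picked by this rule are not reported here. Alternatives were background correction, scaling, filters, moderation, probe averaging, outlier spots, the value table, array weights, replicate block and leaving out each array; normexp used the median signal and median background. The slide block could not be fitted, as each slide held 1 group. Deviations of same-numbered rats correlated at 0.091, 0.058 and 0.026, and those of differently numbered rats from -0.097 to 0.034. As the corn oil numbers are not settled, these values cannot show whether rats were paired.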

Additional observations from a re-analysis of the deposited data

How the results depend on the processing

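No member passed an adjusted p of 0.05 under any alternative that was run, a statement limited by 3 rats per group. Over all features the count was 115 under normexp, 522 under trend and robust moderation and 0 to 4 on leaving out 1 rat, the 4 without corn oil replicate 3. Members lower at an unadjusted p under 0.05 numbered 5 as reported, where 7.12% of all features were lower. They numbered 2 under median scaling (5.92% of all features), without a filter on dim probes (4.58%) and with the replicate block (6.9%). Under normexp they numbered 7 (7.65%), under quantile scaling 8 (7.95%), and on leaving out 1 rat 2 to 5 (5.62% to 6.9%). Members higher, 4 as reported (11.8% of all features), numbered 2 without the dim filter (6.56%), with probe means (11.2%) and with the replicate block (9.69%). On leaving out 1 rat they numbered 2 to 4 (8.38% to 11%). The counts of 2 lower came without corn oil replicate 2 or 3 or o-nitroanisole replicate 2 or 3, and those of 2 higher without corn oil replicate 3 or o-nitroanisole replicate 3. The median was 0.14 for ATF4-type members without the dim filter (0.031 to 0.10 on leaving out 1 rat) and 0.041 for serine and one-carbon members under quantile scaling (0.13 to 0.25 on leaving out 1 rat). The folding median lay between -0.15 and -0.060 in all alternatives. Of 558 member values under alternatives, 538 kept their sign and 20, of 8 members, did not. That count overstates the check. Both other dim-probe filters, trend and robust moderation, kept outlier spots and the replicate block gave every member the main fit's difference again. The value table holds the same signal. Under normexp, Hsp90b1 was 0.0062, Dnajb9 0.11, Chac1 0.012 and Slc7a5 0.066; under median scaling, Hsp90b1 was 0.016 and Atf6 0.0060; under quantile scaling, Atf4 was -0.079; with probe means, Dnajb9 was 0.049 and Atf6 0.053. Leaving out 1 rat gave ranges of -0.11 to 0.14 for Hsp90b1, -0.24 to 0.23 for Dnajb9, -0.10 to 0.11 for Atf6, -0.34 to 0.25 for Slc7a5, -0.028 to 0.062 for Atf4, -0.21 to 0.030 for Ddit3 and -0.041 to 0.20 for Herpud1. The cause was not tested. The replicate block, also with the value table's numbering (chosen after seeing the data), changed no adjusted call.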
